A study of Mus musculus with 6 samples.

Results

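The 54 genes described here are the chemokines and chemokine receptors named on a mouse expression array. They were chosen by symbol alone, as those that begin with Ccl, Cxcl, Ccr or Cxcr and a digit or with Ccrl, together with Cx3cl1, Cx3cr1, Xcl1, Xcr1, Ppbp and Pf4, and no measured value entered the choice. They are 54 of 17742 named genes. Of these, 33 are ligands and 21 are receptors. The annotation names them with 60 probes, and for the 6 genes with 2 probes the probe with the higher mean over all arrays was used. The entries Ccrl1 and Cxcr7 of the annotation appear here under their current symbols Ackr4 and Ackr3.

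The study used female BALB/c mice, and each of 6 arrays was hybridised with amplified Cy5-labelled RNA. Brain, ovary and uterus are the labelled tissues, once from untreated mice (mock) and once from mice that received Sheng-Hua-Tang (SHT), a decoction of herbs, orally at a dose of 200 mg/kg on 7 days. As a group was a single array, the values carry no replicate error, and precision is bounded by the small number of arrays. Age, pooling of animals and batches were not stated in the labels. Arrays are called by their labels below, so that "the SHT uterus array" is the array labelled so and no statement about its tissue. Where 6 values follow a gene, they are linear intensities, ordered as brain, ovary and uterus by label, with mock before SHT in each. Intensities of different probes are not on a common scale, so that each gene is compared between arrays only. Sums over a marker list are also compared between arrays only, and the brightest probes of the list weigh most in them.

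Marker genes went against the tissue labels of 4 of the 6 arrays. Snap25, a neuronal protein of transmitter release, read 58204, 210, 810, 60038, 768 and 1601, and was thus high on the mock brain and SHT ovary arrays. Hsd3b1, a steroid-producing enzyme, read 101, 40566, 84.4, 76.2, 51780 and 65.3, and was high on the SHT brain and mock uterus arrays. Krt5, a keratin of stratified epithelium, read 250, 104, 36716, 198, 115 and 29948, and was high on the mock ovary and SHT uterus arrays. The same 3 pairs of arrays were the most alike of all 15 pairs over all probes, with Pearson correlations of log2 intensity of 0.996, 0.981 and 0.972. The mock brain array had the markers of its label. The SHT uterus array was high in Hoxa10, a homeobox gene of the uterus, at 6642, but also in the squamous list, which summed to 240507 there and to 269109 on the mock ovary array, so that how far its label holds is not settled. No comparison of SHT with mock could be made without an array in doubt. Every difference below is therefore a difference between arrays and is assigned neither to a tissue nor to the treatment. Because these were whole tissues, fewer cells of a type and less RNA per cell cannot be told apart.

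Chemokines are small secreted proteins that direct the migration of leukocytes along concentration gradients. They fall into the CC, CXC, CX3C and C families by the spacing of their first cysteines, and they act on receptors coupled to inhibitory G proteins, while the atypical receptors take up ligand without that coupling. Inflammatory chemokines are made on demand and bring neutrophils, monocytes or eosinophils into tissue. Homeostatic chemokines, such as Cxcl12, are made steadily and place cells within organs. In brain, Cx3cl1 on neurons and its receptor Cx3cr1 on microglia are a known pair. In the uterus, leukocyte content is known to change over the oestrous cycle, whose stage the labels do not give.

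The background of each array was read from 529 genes of olfactory receptors, a family that few tissues outside the nose express. Their 95th percentile on the 6 arrays was 541, 275, 312, 403, 295 and 318, and a reading above it is called above the background spread. By this limit 32 of the 54 genes were above the background spread on at least 1 array, 22 on none and 7 on all 6. The number above it was 7 on the mock brain array, where 44.2% of all named genes were above, and 8 on the SHT ovary array, where 48.0% were. It was 16 on the SHT brain array (54.4% of all named genes) and 15 on the mock uterus array (55.3%). It was 20 on the mock ovary array (51.1%) and 30 on the SHT uterus array (55.2%). On the SHT uterus array the genes' share of 55.6% was thus close to that of all named genes, while on the other 5 arrays it lay below, between 13.0% and 37.0%. Of the 11 genes above the background spread on a single array, 9 were so on the SHT uterus array. How all named genes divide by the number of arrays was not counted, so these numbers are not read as particular to the 54 genes.

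**Figure D1:**
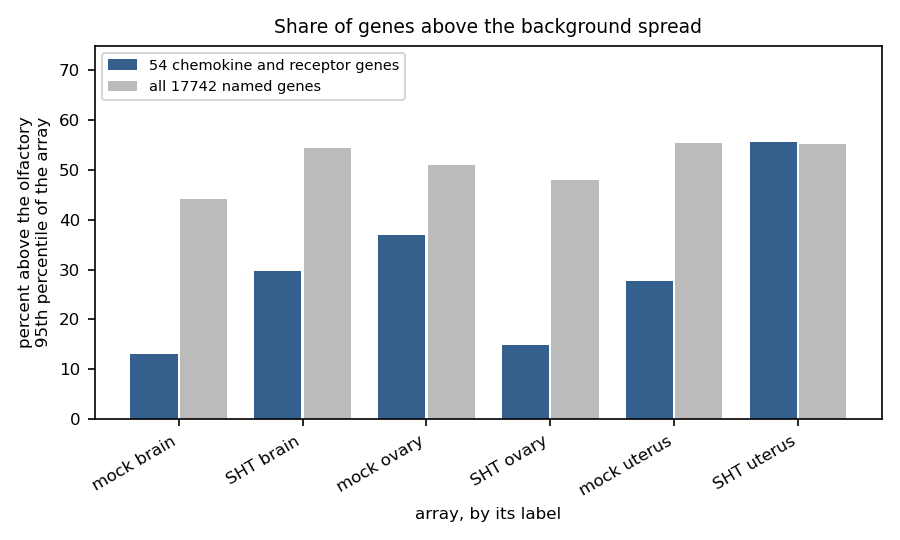
Bars give, for each array (horizontal axis, by label), the percent of genes (vertical axis) that exceeded the background limit of that array, for the 54 chemokine and receptor genes and for all 17742 named genes. The chemokine and receptor bar is lowest on the mock brain array, at 13.0%, and reaches 55.6% on the SHT uterus array, next to 55.2% for all named genes.

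**Figure D2:**
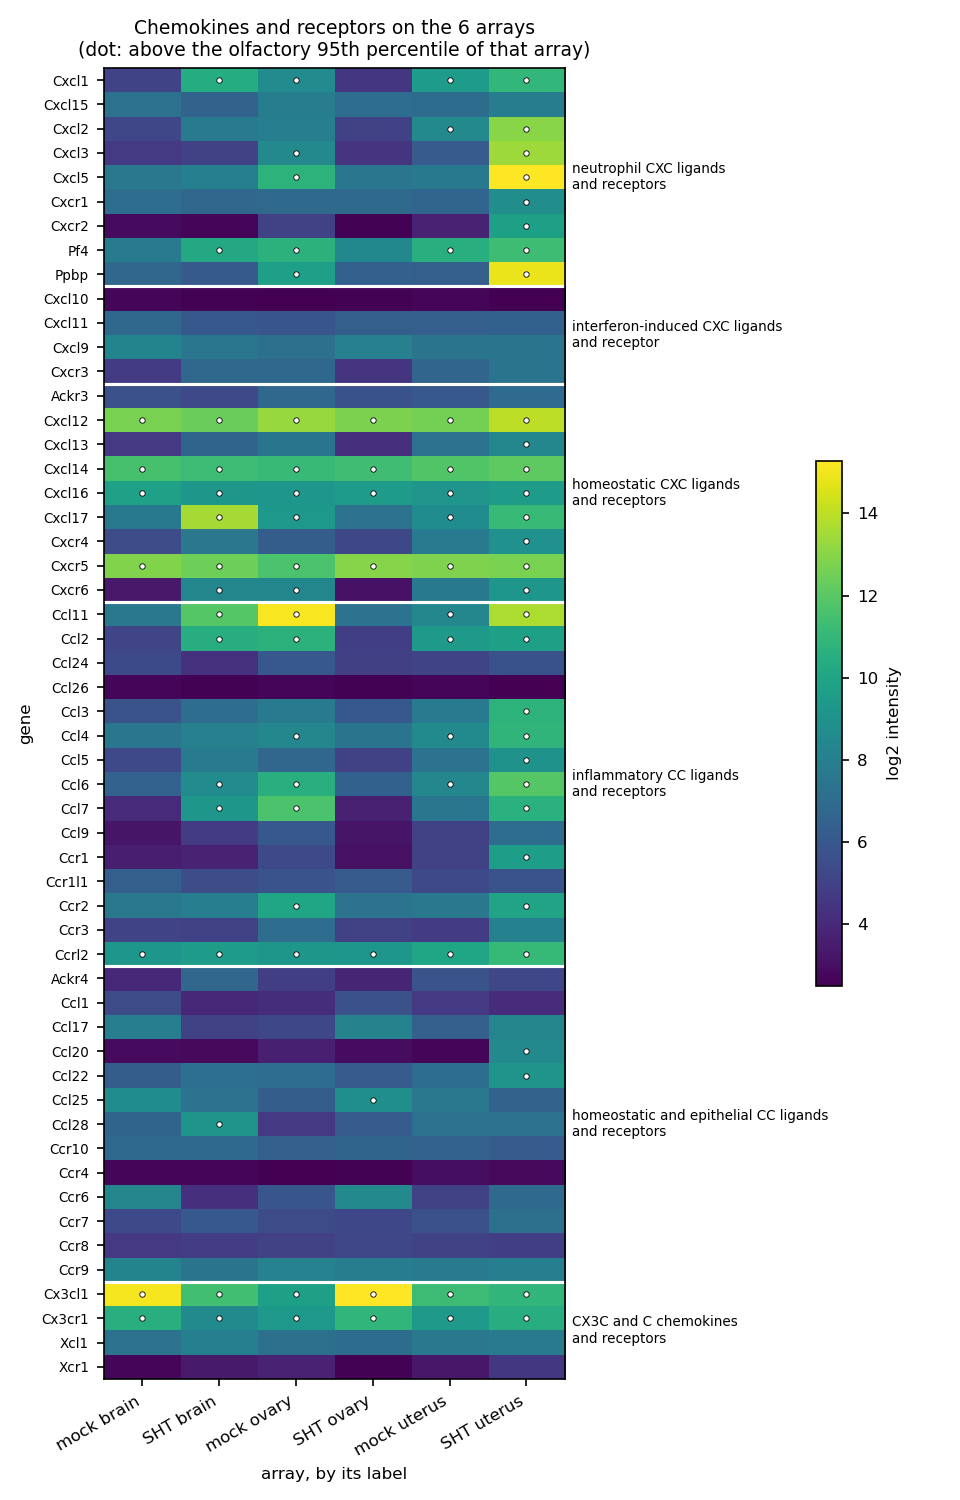
Rows are the 54 genes by role, columns the 6 arrays by label, the colour is log2 intensity, and a dot marks a reading above the olfactory 95th percentile of that array; colours are to be compared along a row only. The dots are 30 on the SHT uterus array and 7 on the mock brain array, and Cx3cl1 is bright on the mock brain and SHT ovary arrays.

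The ligands that draw neutrophils through the receptor Cxcr2 were high on the SHT uterus array. Cxcl5 read 198, 259, 1710, 181, 202 and 39504. Cxcl3 read 25.8, 31.7, 370, 22.5, 72.9 and 10816. Both were above the background spread on the mock ovary and SHT uterus arrays and on no other. Cxcl2 read 37.0, 215, 246, 32.8, 360 and 8325, and was above the background spread on the mock uterus and SHT uterus arrays. Cxcl1 read 35.3, 1338, 410, 23.2, 737 and 1970, and so was above the background spread on the 4 arrays other than mock brain and SHT ovary, with less contrast between them. Cxcl15, a CXC ligand known from mouse lung, read between 93.3 and 244 and was above the background spread on no array.

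Ppbp and Pf4, the chemokines stored in platelets, did not follow each other. Ppbp read 105, 69.9, 825, 83.9, 82.0 and 30701, with the SHT uterus array 37.2 times the next highest, mock ovary. Pf4 read 225, 1192, 1657, 350, 1518 and 2513, and was above the background spread on the 4 arrays other than mock brain and SHT ovary. Of the platelet markers, 5 of 6 had a probe, and their summed intensity was lowest on the SHT uterus array, with 1101, 532, 616, 937, 658 and 271. None of the 5 was above the background spread there, and the platelet surface genes Gp9, Gp5 and Itga2b were so on no array.

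Cxcr1 and Cxcr2, the receptors of ligands that draw neutrophils, were above the background spread on the SHT uterus array only. Cxcr2 read 7.35, 6.32, 33.0, 6.05, 13.0 and 861. Cxcr1 read 136, 103, 122, 120, 102 and 448. The neutrophil markers moved with them in part. Of 8 listed markers 7 had a probe, of which 5 were above the background spread on the SHT uterus array and between 1 and 3 on the others. Their summed intensity was 2726, 1929, 12537, 3941, 1840 and 67999. Csf3r, the receptor of granulocyte colony-stimulating factor, read 3486 on the SHT uterus array and at most 138 elsewhere, and S100a9 and Retnlg, which make up most of the sum, read 37218 and 26031 there. S100a8, the partner of S100a9, was highest instead on the SHT ovary and mock brain arrays, at 2284 and 1924 against 522 on the SHT uterus array, and Mpo read 716 on the mock ovary array and 681 on the SHT uterus array. The granule genes Ngp and Camp, which are used by immature neutrophils, were inside the background spread on all 6 arrays. The part of neutrophil content in the readings of these ligands and receptors was not tested.

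**Figure D3:**
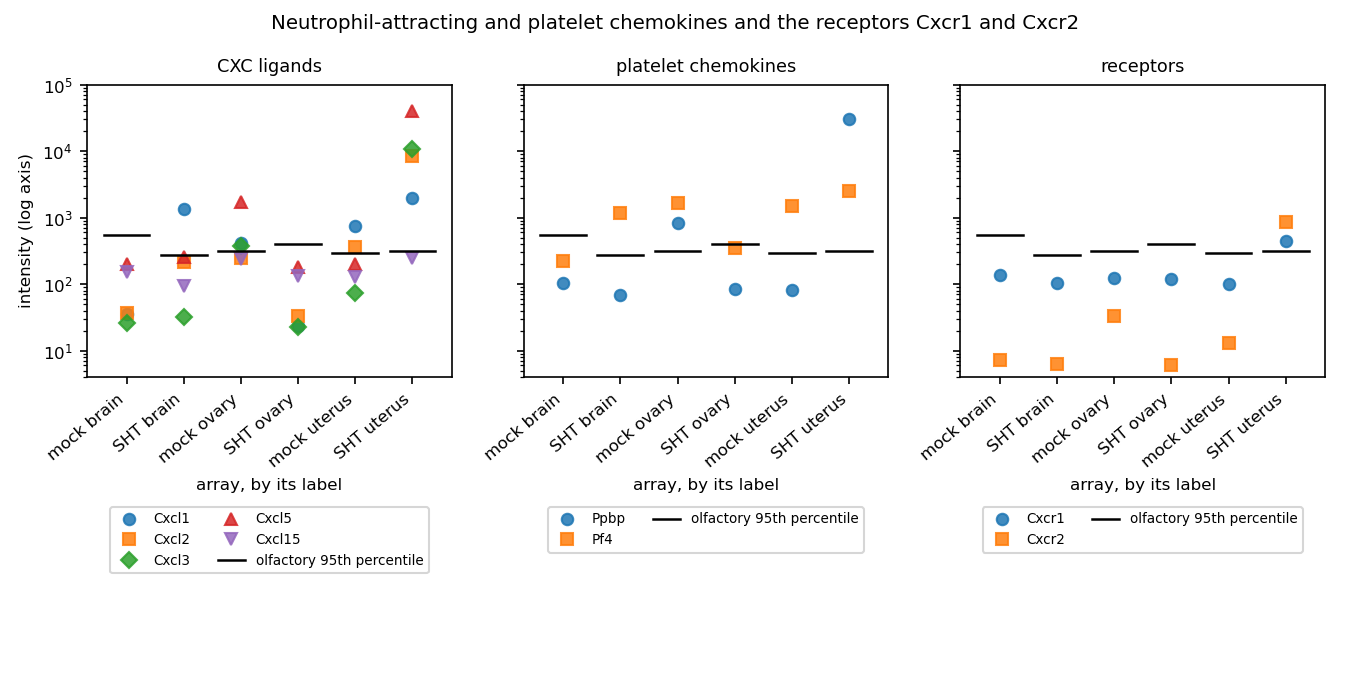
Points give the intensity (vertical log axis) of each gene on the 6 arrays (horizontal axis, by label), and the black bars mark the olfactory 95th percentile of each array. On the SHT uterus array Cxcl5 reads 39504, Ppbp 30701, Cxcl3 10816 and Cxcl2 8325, and Cxcr1 and Cxcr2 lie above the bar on that array only.

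These ligands are neighbours in the genome. In the gene order of the mouse assembly GRCm38.p6, Cxcl5, Ppbp, Pf4, Cxcl3, Cxcl15, Cxcl1 and Cxcl2 follow each other on chromosome 5, in a run of 7. The 6 of them that were above the background spread on any array, all but Cxcl15, had their highest reading on the SHT uterus array, as had 21 of the 32 such genes as a whole. The share of all named genes that were highest on that array was not counted. The stretches before the start sites of 4 of them are shown, because 3 of these genes share a sequence and their neighbour Ppbp lacks it. Each is 250 bases before to 50 after the annotated start, on the plus strand of GRCm38.p6 from RefSeq, at chr5:90890995-90891294 for Cxcl1, chr5:90903649-90903948 for Cxcl2, chr5:90785851-90786150 for Cxcl3 and chr5:90768268-90768567 for Ppbp. Capitals mark GGGAATTTCCC, the longest sequence that Cxcl1, Cxcl2 and Cxcl3 share before their starts, which holds a form of the kappa B sequence known to be bound by NF-kappa B, and TATAAA, the core of the TATA box.
Cxcl1: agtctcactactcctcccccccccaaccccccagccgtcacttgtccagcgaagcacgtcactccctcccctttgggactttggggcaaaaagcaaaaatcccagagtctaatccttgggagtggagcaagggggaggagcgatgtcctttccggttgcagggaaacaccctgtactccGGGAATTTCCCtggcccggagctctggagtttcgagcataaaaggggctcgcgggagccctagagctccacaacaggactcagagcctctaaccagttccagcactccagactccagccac
Cxcl2: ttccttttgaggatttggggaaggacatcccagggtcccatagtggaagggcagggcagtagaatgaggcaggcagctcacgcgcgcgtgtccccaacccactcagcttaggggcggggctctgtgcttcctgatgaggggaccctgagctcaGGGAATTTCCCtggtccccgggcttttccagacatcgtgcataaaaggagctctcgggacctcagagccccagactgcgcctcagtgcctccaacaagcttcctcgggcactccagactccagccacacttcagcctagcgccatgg
Cxcl3: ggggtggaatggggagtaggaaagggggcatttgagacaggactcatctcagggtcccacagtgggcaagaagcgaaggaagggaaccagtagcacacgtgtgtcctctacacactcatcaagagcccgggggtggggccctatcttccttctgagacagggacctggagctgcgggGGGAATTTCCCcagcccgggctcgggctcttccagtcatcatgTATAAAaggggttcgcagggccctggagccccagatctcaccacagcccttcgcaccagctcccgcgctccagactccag
Ppbp: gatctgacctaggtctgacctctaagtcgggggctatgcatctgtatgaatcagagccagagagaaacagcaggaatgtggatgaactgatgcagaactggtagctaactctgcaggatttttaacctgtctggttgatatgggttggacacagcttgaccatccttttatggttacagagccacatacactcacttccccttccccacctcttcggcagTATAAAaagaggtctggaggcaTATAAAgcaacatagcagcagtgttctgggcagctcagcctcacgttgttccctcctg

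The shared sequence began 71 bases before the start of Cxcl1, 97 before that of Cxcl2 and 73 before that of Cxcl3. It was found by comparing these 3 stretches, so that its presence in them is no result. Searched on both strands (GGGAAATTCCC on the other), it was in 14 of 32851 such stretches, or 0.0426%, and in no other of the 40 genes described here that had one. TATAAA, searched on both strands as well, was in 13.6% of all stretches and in those of 13 of the 40 genes. Among those shown, Cxcl3 and Ppbp held it, with a first match 30 bases before the start in both. A match describes the letters only, and a missing match says only that these letters are not in this window.

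Of the inflammatory CC ligands, Ccl11, Ccl7 and Ccl2 had their highest readings on the mock ovary array. Ccl11 (eotaxin), which acts on eosinophils through Ccr3, read 195, 3860, 36393, 165, 336 and 13352. Ccl7, a monocyte attractant, read 17.0, 612, 3252, 12.7, 181 and 1618. Ccl2, the main ligand of Ccr2, read 35.4, 1387, 1648, 29.3, 659 and 863. All 3 were inside the background spread on the mock brain and SHT ovary arrays. Ccl2 and Ccl11 were above it on the other 4 arrays, and Ccl7 on 3, without mock uterus.

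A second set of CC ligands had its highest readings on the SHT uterus array instead. Ccl6 read 91.5, 404, 1439, 87.9, 345 and 3841. Ccl4 read 180, 264, 343, 173, 384 and 1859. Ccl3, which like Ccl4 is made by activated macrophages and neutrophils, read 54.6, 135, 207, 64.0, 225 and 1729, above the background spread on the SHT uterus array only. Ccl5 read 520 there and at most 211 elsewhere, and Ccl9 read at most 134 on any array. These sets were grouped here by their highest array, so the match of that array with gene order is described only. Of all 32 genes above the background spread on any array, 21 were highest on the SHT uterus array. Ccl2, Ccl7 and Ccl11 form a run of 3 on chromosome 11, all highest on the mock ovary array, and Ccl5, Ccl9, Ccl6, Ccl3 and Ccl4 form a run of 5 on the same chromosome, of which the 4 above the background spread on any array, all but Ccl9, were highest on the SHT uterus array. Ccl24 and Ccl26, neighbours on chromosome 5 whose products share the receptor of Ccl11, read at most 64.8 and 6.35.

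Of their receptors, Ccr2 was above the background spread on 2 arrays and Ccr1 on 1. Ccr2, the monocyte receptor of Ccl2 and Ccl7, read 194, 246, 1045, 165, 195 and 986. The second probe of Ccr2 was lower but had the same 2 arrays highest, with 11, 121, 475, 8.62, 74.0 and 463. Ccr1, a receptor of Ccl3 and Ccl6, read 12, 13.6, 39.3, 8.33, 31.4 and 796, and so was above the background spread on the SHT uterus array only. Ccr3 read 34.9, 31.0, 135, 32.3, 26.5 and 272, inside the background spread throughout, and Ccr1l1 read at most 81.3. Ccrl2, an atypical receptor that binds chemerin, was above the background spread on all 6 arrays, with 591, 734, 615, 602, 1069 and 2156.

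Marker lists of the cells that these genes are known from moved with them in part. All 8 measured macrophage markers were above the background spread on the 4 arrays other than mock brain and SHT ovary, where 5 and 6 were. Their summed intensity was 17036, 29106, 30477, 21087, 27519 and 77980. Within these sums Cd14 alone read 35712 on the SHT uterus array and 3127 on the mock ovary array. The fibroblast list, of 5 genes, summed to 7599, 65941, 113899, 5916, 60338 and 122645, and 5 of 5 were above the background spread on the same 4 arrays. Of the eosinophil markers, 3 of 4 had a probe, and none was above the background spread on any array, with sums between 304 and 584. The part of macrophage and fibroblast content in the readings of the CC ligands was not tested.

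**Figure D4:**
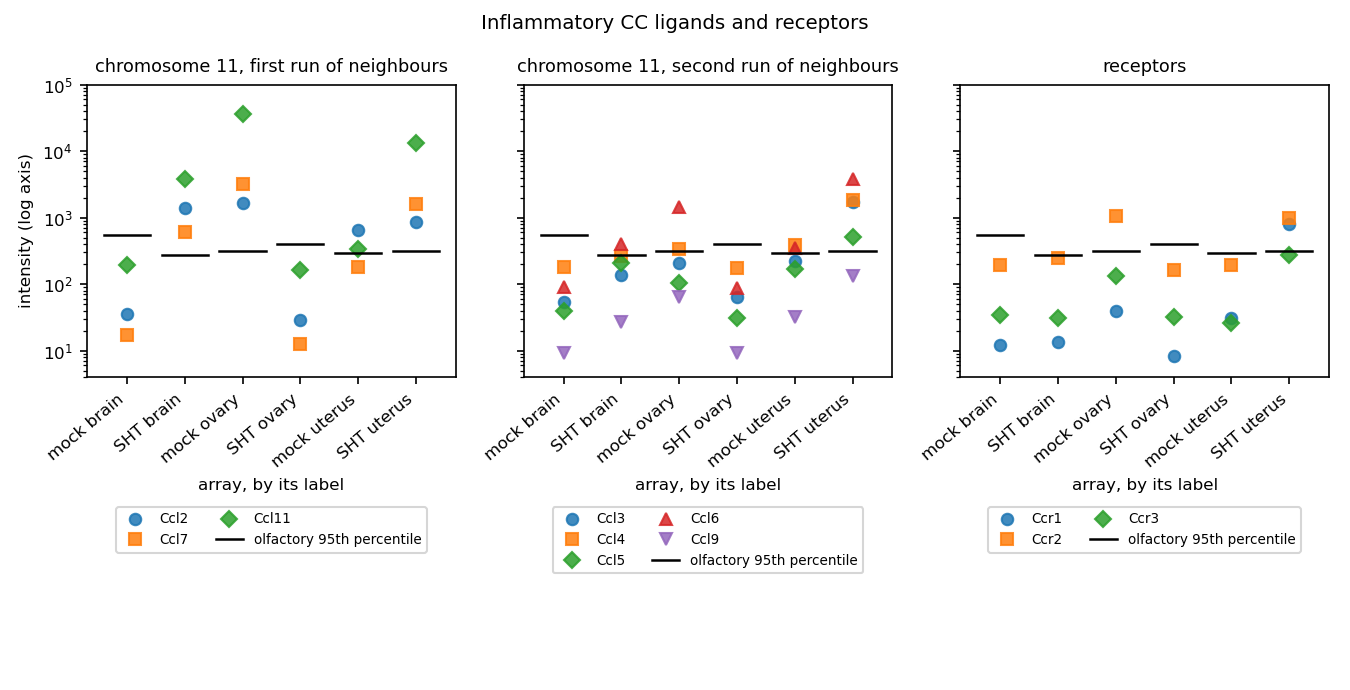
Points give the intensity (vertical log axis) of CC ligands in 2 runs of neighbouring genes on chromosome 11, and of their receptors, on the 6 arrays (horizontal axis, by label), with black bars at the olfactory 95th percentile. Ccl11 reads 36393 on the mock ovary array and 13352 on the SHT uterus array, whereas Ccl6, Ccl4, Ccl3, Ccl5 and Ccl9 are each highest on the SHT uterus array.

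Cxcl12, Cxcl14 and Cxcl16, homeostatic CXC ligands, were above the background spread on all 6 arrays. Cxcl12, which holds blood stem cells and lymphocytes in place through Cxcr4, read 6655, 5233, 10136, 6875, 6300 and 16190, a 3.09-fold span. Cxcl14 read 3001, 2417, 2236, 2651, 3534 and 4332, and its second probe, with 1469, 1110, 1994, 1736, 1355 and 3560, was also highest on the SHT uterus array. Cxcl16, a membrane-bound ligand of Cxcr6, read between 571 and 894. Cxcl13, the B cell attractant, exceeded it only on the SHT uterus array, at 341 against a limit of 318.

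Cxcl17, a ligand of mucosal epithelium, was, like Ccl28, highest on the SHT brain array. It read 206, 12114, 631, 161, 414 and 2303, with the SHT brain array 5.26 times the next highest, SHT uterus. Between the SHT brain and mock uterus arrays, both of which carried ovarian markers, it differed 34.7-fold. The markers of uterus and lower tract, 7 genes, also differed between those arrays, with sums of 52966 and 26770, as did the homeobox gene Hoxa10, with 1163 and 324. Most of both sums was Ltf, with 42062 and 22691. Hoxd13, of the same list, went the other way, with 282 and 330, and Hoxa13 read at most 2.32 on both arrays. The list summed higher on the mock ovary and SHT uterus arrays, to 54304 and 99087, where Cxcl17 was lower than on the SHT brain array. The part of such tissue in the readings of Cxcl17 was not tested.

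Of the CXC receptors in this group, Cxcr4 read 44.8, 186, 76.6, 38.5, 220 and 495, above the background spread on the SHT uterus array only. Cxcr6, known from T cells and natural killer cells, read 10.3, 328, 329, 8.62, 203 and 585, and was above it on 3 arrays. The probe named Cxcr5, after the B cell receptor of Cxcl13, read 7449, 5554, 3186, 7934, 7098 and 6708. Of 4 measured B cell markers, Ms4a1 and Blk were inside the background spread on all 6 arrays, Cd79a was above it on 3 and Cd79b on 4, and none read over 848. Whether the Cxcr5 probe measures that gene is not known here. Ackr3, the scavenging receptor of Cxcl12, read at most 125. Of the T cell markers, 6 of 7 had a probe, and of these 1 was above the background spread on each of 5 arrays and 2 on the SHT uterus array.

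The interferon-induced CXC ligands and their receptor Cxcr3 were above the background spread on none of the arrays. Cxcl10 was listed between -0.34 and 2.62, Cxcl11 read at most 111 and Cxcl9 at most 310. Cxcr3 read 26.0, 111, 110, 22.2, 103 and 168. The 2 probes of Cxcl9 disagreed. The brighter one read 310, 185, 149, 264, 172 and 171, highest on the mock brain array, whereas the other read 12.4, 119, 36.9, 11.6, 82.8 and 81.3, highest on the SHT brain array.

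Most of the homeostatic and epithelial CC genes were not separated from background, with 4 of 13 above the background spread on any array. Ccl28, a ligand of mucosal epithelia, read 545 on the SHT brain array and between 24.6 and 154 on the others. Ccl20, an epithelial ligand that acts on Ccr6, read between 6.35 and 12.3 on 5 arrays and 360 on the SHT uterus array, which alone was above the background spread. Ccl22, a ligand of Ccr4 made by dendritic cells and macrophages, read 546 on the SHT uterus array and at most 143 elsewhere. Ccl25, known from thymus and small intestine, read 464 on the SHT ovary array against a limit of 403, and 418 on the mock brain array, inside the background spread, while its second probe read at most 21.8 on any array. Ccr6 read 313 and 369 on the mock brain and SHT ovary arrays and at most 122 on the others, all inside the background spread. The readings of Ccl1, Ccl17, Ccr4, Ccr7, Ccr8, Ccr9, Ccr10 and Ackr4 did not exceed 315 on any array and were inside the background spread.

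Cx3cl1 and its receptor were above the background spread on all 6 arrays. Cx3cl1 (fractalkine) read 35576, 2702, 876, 39473, 2421 and 1918, and was thus high on the 2 arrays with neuronal markers. Cx3cr1 read 1510, 384, 636, 1899, 670 and 1386, highest on the same arrays, although the SHT uterus array was close to the lower of them. The neuron list, of which 5 of 6 genes had a probe, summed to 122290, 565, 4250, 130667, 1313 and 4317. The microglia list, of which 3 of 5 had a probe, summed to 2850, 4623, 7977, 3532, 3454 and 7581, with 2 of 3 above the background spread on every array, and its sum was not highest on the arrays where Cx3cr1 was highest. Its genes disagreed. Tmem119 read 5029 and 5721 on the mock ovary and SHT uterus arrays, and Trem2 between 1377 and 2923. Siglech read 222 and 258 on the mock brain and SHT ovary arrays and at most 69.6 elsewhere, inside the background spread throughout. On chromosome 8, Cx3cl1 lies between Ccl22 and Ccl17, neither of which was above the background spread on the mock brain or SHT ovary arrays. Ccl17 read 246 and 299 on those arrays, inside the background spread, and 315 on the SHT uterus array. Xcl1 and Xcr1, the C chemokine and its receptor on dendritic cells, read at most 259 and 24.0.

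The labels ask how SHT changes expression in each tissue, so the SHT array was set against the mock array of the same labelled tissue. A gene was counted where the mean of the pair exceeded the median over all probes and the arrays differed at least 2-fold, relative to the median gene of the pair. The log2 difference of that median gene was -0.12 in the pair labelled brain, 0.13 in the pair labelled ovary and -0.02 in the pair labelled uterus. Folds are written "at least" where the dimmer array read under its olfactory 95th percentile, and that limit was then used for it. A gene that is high on 1 array of a pair passes the level rule through that array, so the counts describe all 54 genes and support nothing about those that passed. Medians over the 54 genes take in readings inside the background spread. Both arrays of the pair were inside it for 38 of the 54 in the pair labelled brain, 33 in that labelled ovary and 24 in that labelled uterus.

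In the pair labelled brain, whose arrays carried ovarian (SHT) and neuronal (mock) markers, 6 of the 54 genes were counted as higher on the SHT array and 3 as lower, and 19 passed the level rule. Of all genes that passed, 24.7% were counted as higher and 21.7% as lower. Cxcl17 was at least 24.3-fold higher, Ccl11 at least 7.74-fold, Ccl2 at least 2.78-fold, Cxcl1 at least 2.68-fold, Pf4 at least 2.39-fold and Ccl28 at least 1.09-fold. Cx3cl1 was 12.1-fold lower and Cx3cr1 3.63-fold lower. Ccl25, also counted as lower, was inside the background spread on both arrays. The median of the 54 genes was 0.30 on the log2 scale, beside 0 for all genes.

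In the pair labelled ovary, whose arrays carried neuronal (SHT) and keratin (mock) markers, 3 of the 54 genes were counted as higher on the SHT array and 10 as lower, and 18 passed the level rule. Among all genes that passed, 23.0% were higher and 23.4% lower. Cx3cl1 was 41.2-fold higher, Cx3cr1 2.73-fold and the probe named Cxcr5 2.28-fold. Ccl11 was at least 98.7-fold lower, Ccl7 at least 8.82-fold, Cxcl5 at least 4.64-fold, Pf4 at least 4.50-fold and Ccl2 at least 4.47-fold. The lower bounds for Ccl6, Ccr2, Ppbp and Cxcl17 ran from 1.71-fold to 3.90-fold, and Ccl4 had no fold, since its reading of 343 on the mock array was below the limit of 403 on the SHT array. The median of the 54 genes was -1.06.

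In the pair labelled uterus, whose arrays carried keratin (SHT) and ovarian (mock) markers, 20 of the 54 genes were counted as higher on the SHT array and 0 as lower, and 27 passed the level rule. Of all genes that passed, 13.1% were counted as higher and 8.26% as lower. Cxcl5 was at least 135-fold higher, Ppbp at least 105-fold, Ccl11 40.2-fold, Cxcl3 at least 37.1-fold, Cxcl2 23.4-fold and Ccl6 11.3-fold. Ccl3, Cxcl17, Ccl7 and Ccl4 were higher by between 4.90-fold and 5.93-fold, of which Ccl3 and Ccl7 are lower bounds. Ccr2 was at least 3.38-fold higher, Cxcl1 2.70-fold, Cxcl12 2.6-fold, Cx3cr1 2.09-fold and Ccrl2 2.04-fold. The lower bounds for Ccl22, Ccl5, Cxcl13, Cxcr4 and Cxcr6 ran from 1.17-fold to 2.0-fold. The median of the 54 genes was 1.18, beside 0 for all genes. The calls of Cx3cr1 and Ccrl2 in this pair were lost with quantile normalization, at 0.93 and 0.94 on the log2 scale, and with each array centred on its median, at 0.94 and 0.90.

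**Figure D5:**
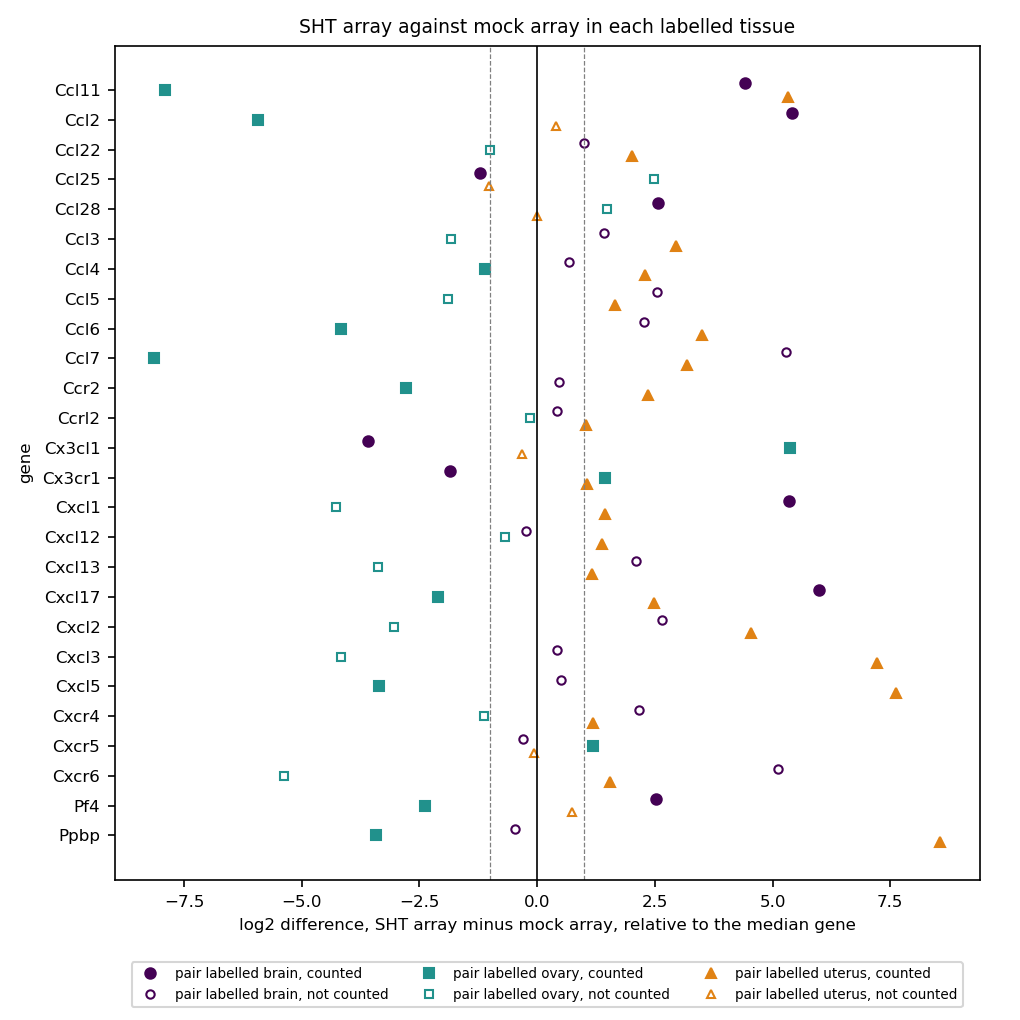
Points give the log2 difference of the SHT array from the mock array relative to the median gene (horizontal axis) in the 3 labelled pairs, for the 26 genes (vertical axis) counted in at least 1 pair; filled points were counted, and dashed lines mark 2-fold. Readings are plotted as listed, also where the dimmer array was inside its background spread, so that a point such as that of Ppbp at 8.57 in the pair labelled uterus stands for a bound. Cx3cl1, above background throughout, lies at -3.60 and 5.37 in the pairs labelled brain and ovary.

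Of the 26 genes counted in any pair, 13 were counted in 1 pair, 10 in 2 and 3 in all 3. Those 3 were Ccl11, Cxcl17 and Cx3cr1, and none of them kept its sign across the pairs. Such a change of sign was not particular to the chemokine genes. It follows from the layout for any gene high on the mock and the SHT array that carried the same markers. The brighter array was next required to be above the background spread and the fold or its bound over 1. By this rule 12 of the 54 genes were counted in 2 or more pairs, and 11 of them ran in opposite directions. Of all named genes, 4254 were so counted, and 4172 of them, or 98.1%, ran in opposite directions. On the SHT array Ccl11 was at least 7.74-fold higher in the pair labelled brain, at least 98.7-fold lower in that labelled ovary and 40.2-fold higher in that labelled uterus. For Cxcl17 these were at least 24.3-fold higher, at least 1.71-fold lower and 5.63-fold higher. For Cx3cr1 they were 3.63-fold lower, 2.73-fold higher and 2.09-fold higher, of which the first fell just short of 2-fold, at -0.998 on the log2 scale, with readings raised to the olfactory limit, and the last was lost at 0.94. Cx3cr1 was thus lower in the pair whose mock array carried neuronal markers and higher in the pair whose SHT array did.

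The average over the 3 labelled tissues was tested with limma, with labelled tissue as a block, on 10763 genes above the level rule, of which 20 were among the 54. None of the 10763 passed an adjusted p of 0.05 (0% of all genes, and 0 of the 20), and 4 genes, none of the 20, had an unadjusted p under that value. The smallest unadjusted p among the 20 was that of Cxcl17, whose average difference was 2.13 on the log2 scale with a standard error of 1.68 (limma, adjusted p = 0.999964), and which was higher on the SHT array in 2 of 3 pairs. Cxcl5 had an average of 1.59 with a standard error of 2.32, and Ccl11 one of 0.61 with a standard error of 3.02. The standard errors reflect the spread between labelled tissues and not between mice. The mock and SHT arrays of each labelled pair carried markers of different tissues, so the block did not remove tissue differences. These differences enter the standard errors, and the absence of calls therefore says nothing about an effect of SHT.

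The 3 pairs of arrays that were most alike over all probes were also compared. They were picked by that likeness, so a low share of differing genes follows in part from the choice. Each set a mock array against an SHT array. These pairs are therefore not replicates, and their counts give no scale of error for the differences above. Between the mock brain and SHT ovary arrays 13 of the 54 genes passed the level rule and 0 differed at least 2-fold, as did 0.113% of all genes that passed. Between the SHT brain and mock uterus arrays 6 did, with 22 passing, beside 6.39% of all genes that passed, and all 6 were higher on the SHT brain array. They were Cxcl17, Ccl11 (13.6-fold), Ccl2 (2.50-fold), Ccl7 (at least 2.46-fold), Ccl28 (at least 2.19-fold) and Cxcl1 (2.15-fold). Between the mock ovary and SHT uterus arrays 16 did, with 28 passing, beside 11.2% of all genes that passed, 13 of them higher on the SHT uterus array. Ppbp was 29.5-fold higher there, Cxcl3 23.2-fold, Cxcl2 at least 21.2-fold and Cxcl5 18.3-fold, whereas Ccl11 was 3.44-fold, Ccl7 2.53-fold and Ccl2 2.41-fold lower. In the other 12 pairs between 5 and 20 of the 54 genes differed, beside 18.2% to 46.8% of all genes that passed.

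Genes that act around the chemokines were read from 5 lists. Of their 59 measured genes, 39 passed the level rule in the pair labelled uterus, 21 of them higher and 1 lower, beside 13.1% and 8.26% of all genes that passed. Here too a gene can pass through the 1 array where it is high. Ltb4r2, for example, read 140 on the mock uterus array and 638 on the SHT uterus array. The counts therefore describe the lists and support nothing about the genes that passed. Of 7 other chemoattractant receptors, 4 passed, and these 4 were counted as higher and 0 as lower in the pair labelled uterus, with a list median of 2.20 on the log2 scale. They were Fpr2, a formyl peptide receptor, C3ar1, Ltb4r1 and Ltb4r2, and Fpr2 read 391, 484, 572, 423, 570 and 3798. Of 10 measured genes of leukocyte adhesion, 7 passed and 5 were counted as higher and 0 as lower in that pair, among them the integrin chain Itgb2, with 278, 507, 1426, 304, 500 and 3581. Of 21 measured genes of G protein and kinase signalling 17 passed and 6 were higher and 0 lower there, among them Rac2, a GTPase of blood cells, with 272, 488, 1290, 253, 505 and 3263.

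Of 17 measured inducing cytokines and factors, 9 passed, of which 4 were counted as higher and 1 as lower in the pair labelled uterus. Il1b, a cytokine that induces neutrophil attractants, read 425, 489, 950, 343, 956 and 24970. Il1a read 188, 739, 365, 156, 129 and 3935. Both were thus highest on the SHT uterus array, whereas Tnf, Il6 and Il17a were inside the background spread on all 6 arrays. Nfkb1, a subunit of NF-kappa B, ran the other way in that pair, with 4036, 1967, 1877, 5285, 1026 and 211. Of 4 measured genes of scavenging and cleavage, the 2 that passed, Ackr1 and Mmp9, were counted as higher there, and the protease gene Mmp9 read 320, 358, 644, 283, 471 and 3541. These lists together had in the pair labelled brain 9 genes counted as higher and 9 as lower of 35 that passed, beside 24.7% and 21.7% of all genes. They had in the pair labelled ovary 8 higher and 15 lower of 36, beside 23.0% and 23.4%. The lists hold genes of the same leukocytes as the marker lists above, and their part was not tested.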

How the data were processed

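The deposited values are linear intensities of 26423 probes on 6 arrays, hybridised with 1 dye (Cy5) per the labels' protocols. The authors' processing notes name limma without a version or a role, and no source used here gives the background correction, scaling or filters. The median intensities of the 6 arrays ran from 179 to 224, and thus had no common median, and 20 to 30 values per array were at or below 0.

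Probes were named through the platform annotation, with symbols updated through the RefSeq gene table of GRCm38.p6. Of 20377 probes with 1 gene name, 18213 carried a current symbol, 2126 were matched as a synonym and 38 kept the annotation's name. A further 6046 probes had no single gene name and were not used as genes. For genes with several probes, the brightest by its 6-array mean was taken.

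Each array was floored at the 5th percentile of its positive values and log2 values were taken, with no further scaling. Python 3.11.15 was used, with limma 3.58.1 in R 4.3.3 for the average over labelled tissues (trend option, Benjamini-Hochberg adjustment over all genes tested). Both scripts had first been tested on simulated data. For limma, the simulated tissue differences followed the labelled blocks. The markers of these arrays do not follow them, so that check does not cover this case. With 1 array per group, p-values measure only the spread between labelled tissues. The limit read from the olfactory receptor genes was chosen after these data had been examined. The genes, the marker and pathway lists and the tests were also chosen with earlier results of these data known.

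All 6 values are given for the 15 genes above the background spread on at least 1 array with a span of at least 4-fold, each reading raised to the limit of its array, and for their textbook receptors. Further genes given in full were chosen after their values were seen. Promoters came from RefSeq, where 40 of the 54 genes had an entry. Cross-hybridisation between related genes was not tested. The alternatives tried were scaling, flooring, the level rule, the fold threshold, the probe rule, the background limit, the terms of the limma model and leaving out each pair.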

Additional observations from a re-analysis of the deposited data

Results flagged for a closer look

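For 11 of the 54 genes, or 20.4%, the SHT array was counted as higher in 1 labelled tissue and as lower in another. The same held for 23.5% of all named genes by the same rule, so that the share among the chemokine genes was no higher than the background. Neuronal, ovarian and keratin markers were each high on 1 mock and 1 SHT array, in different labelled pairs. A gene high on both such arrays is therefore higher on the SHT array in 1 pair and lower in another, by this layout alone. The 11 genes gave 14 contrasts, which are not read as effects of SHT. With 1 array per group none of them was tested, and the values describe these arrays only. Each is a difference between 2 log2 differences, the first pair minus the second, taken from the readings as listed. In 3 contrasts all arrays read above the background spread. In the other 11 a dimmer array was inside it, and the size is given beside the value as a lower bound, with that reading replaced by the olfactory limit.

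The 3 measured contrasts were those of Cx3cl1 and its receptor. Cx3cl1 differed by -8.97 between the pairs labelled brain and ovary. Cx3cr1 differed by -3.31 between those pairs and by -2.92 between the pairs labelled brain and uterus, although its call in the pair labelled uterus was lost under other scalings.

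Among the CC genes, Ccl11 differed by 12.34 between the pairs labelled brain and ovary (at least 9.58) and by -13.24 between those labelled ovary and uterus (a size of at least 11.95). Ccl2 differed by 11.35 between the pairs labelled brain and ovary, with a bound of 3.64. Between the pairs labelled ovary and uterus, Ccl7 differed by -11.31, Ccl6 by -7.65 and Ccr2 by -5.14, with sizes of at least 5.61, 5.46 and 3.26. For Ccl7 and Ccl2 the bound is thus less than the listed value by a wide margin.

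Among the CXC genes, Cxcl5 differed by -10.99 and Ppbp by -11.99 between the pairs labelled ovary and uterus, with sizes of at least 9.29 and 7.88. Pf4 differed by 4.90 between the pairs labelled brain and ovary (at least 3.43). Cxcl17 differed by 8.10 between the same pairs (at least 5.38) and by -4.60 between those labelled ovary and uterus (a size of at least 3.27). In each labelled pair at least 1 array carried markers of another tissue than its label, so that treatment and tissue cannot be told apart in any of these contrasts.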

How the results depend on the processing

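Of 104 counts recomputed under alternatives, 94 stayed within 1.5 times the reported count, and the other 10 were these. With no filter on level, 17 of the 54 genes were higher and 6 lower in the pair labelled brain, 8 higher and 28 lower in the pair labelled ovary, and 1 lower in the pair labelled uterus. At 3-fold, 1 gene was higher in the pair labelled ovary and 13 in the pair labelled uterus. With readings raised to the olfactory 95th percentile, 1 gene was lower in the pair labelled brain. Against the olfactory 99th percentile, 12 genes were above background on the mock ovary array and 9 on the mock uterus array. Of the 42 counted differences of single genes under 9 alternatives, 345 results kept their direction and stayed counted, 32 kept their direction only, 1 (Ccl25 in the pair labelled brain, with both readings raised to the olfactory limit) came to 0, and 0 reversed. Over all genes, raising readings to the olfactory limit gave 4549 higher and 1159 lower in the pair labelled brain, against 2659 and 2333 reported. In that pair, 3579 were lower with no filter on level, and 1601 were higher and 1504 lower at 3-fold. In the pair labelled ovary 1642 were lower at 3-fold, against 2500 reported. In the pair labelled uterus 820 were higher and 469 lower at 3-fold, and 1623 were lower with no filter on level, against 1411 and 889 reported. Centring each array on its median was chosen after seeing the data.

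The limma average called 0 of the 54 genes under all 8 alternatives, among them the fit with no replicate block, which called 0, and leaving out each labelled pair, which called 0 to 0. Without the pair labelled ovary, however, 6 of the 20 genes tested had an unadjusted p under 0.05, as did 461 of all genes, against 0 and 4 reported (limma, smallest adjusted p 0.999735). The pairing in that average is the labelled tissue, and replicate numbers, 1 in every group, add none. Leaving out the arrays whose markers went against their labels leaves no pair. All these fits set arrays with unlike markers against each other, so their lack of calls decides nothing about SHT. Readings inside the olfactory spread, 22 of the 54 genes on every array, could not be separated from background.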

Other observations

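Several immune genes that are no chemokines were high on the mock brain and SHT ovary arrays, where 7 and 8 of the 54 chemokine and receptor genes were above background. Ncr1, a receptor of natural killer cells, read 2052, 8.25, 6.35, 2140, 12.9 and 5.66. The other 3 measured markers of that list (Prf1, Gzma and Klrk1) were inside the background spread on all 6 arrays. Ifng read 2667, 94.1, 94.6, 2428, 145 and 129, although Cxcl9, Cxcl10 and Cxcl11, which interferon gamma is known to induce, were inside the background spread on the same arrays. S100a8, a neutrophil gene, read 1924, 208, 232, 2284, 111 and 522, whereas Csf3r was highest on the SHT uterus array. Itgax, an integrin of dendritic cells, read 2756, 403, 277, 2789, 555 and 655. The other genes of the dendritic cell list did not share this. Cd209a was above the background spread on the mock ovary and SHT uterus arrays only, at 313 and 404. Zbtb46 was so on the SHT brain and mock uterus arrays only, at 379 and 521. Flt3 and Cd207 were inside the background spread on all 6 arrays.

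The mast cell protease gene Cpa3 read 90.5, 490, 586, 75.7, 385 and 2061, and so was highest on the array where most chemokines were. The other measured mast cell markers did not share this. Tpsb2 read 1087, 605, 747, 515, 635 and 1004, highest on the mock brain array. Fcer1a was inside the background spread on all 6 arrays. The remaining marker lists are given as summed intensities. Endothelial markers summed to 3028, 7806, 7524, 3152, 12009 and 12448, and adipocyte markers to 840, 44259, 31048, 471, 72009 and 39900. Myelin markers summed to 50010, 1903, 1009, 47104, 3774 and 1701. Ovarian markers summed to 1343, 96184, 4082, 1258, 141207 and 4540, and those of squamous epithelium to 1419, 2409, 269109, 1222, 2996 and 240507. Skeletal muscle markers summed to 1340, 1057, 2559, 1406, 250 and 5304. T cell markers ran from 1432 to 3951 and B cell markers from 617 to 1137, and 2 measured markers of lymphatic endothelium were inside the background spread on all 6 arrays. Erythroid markers ran from 691 to 1495.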
